A study of Homo sapiens with 16 samples.

Results

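The earliest transcriptional response of the vemurafenib-resistant melanoma line UACC62R to the compound CCG-222740 was measured by comparing 2 libraries made after 2 h of exposure with 2 libraries of untreated cells (0 h), across all genes counted. These are 4 of the 16 libraries of the series, and 20280 of its 63677 gene IDs had enough reads to be tested. The tested libraries came from UACC62R cells given 10 uM CCG-222740 for 2 h. The untreated libraries came from UACC62R cells with no treatment named. UACC62R is a human melanoma line that was selected over 2 months in vemurafenib, a drug against mutant BRAF, at 2 uM and then kept in it. Whether vemurafenib was also present during the 2 h of CCG-222740 is not given in the labels of the treated libraries. Where a value from the parental line is set beside these, it comes from UACC62P cells given 10 uM CCG-222740 for 2 h (1 library) or left untreated (2 libraries). The untreated libraries contain no vehicle and carry different label texts from the treated ones. An effect of the compound therefore cannot be told apart from an effect of vehicle, handling or time of preparation. In UACC62R it also cannot be told apart from a possible difference in vemurafenib between the groups. Separate cultures are not named in the labels for the libraries of a group; the p-values below therefore reflect no more than the spread among these libraries, and that spread could be technical.

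CCG-222740 belongs to a group of compounds studied as inhibitors of gene activation by MRTFA and MRTFB, the actin-regulated coactivators of the transcription factor SRF. When monomeric actin is depleted, these coactivators enter the nucleus and, with SRF, switch on genes for actin, its binding proteins and matricellular proteins, as well as some immediate early genes. A separate early program is driven by the zinc sensor MTF1, which binds metal response elements in front of metallothionein genes and of the zinc exporter gene SLC30A1. Another is driven by HSF1, which binds heat shock elements in front of genes for cytosolic chaperones.

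Between 27.0 and 31.0 M reads per library fell in genes, and levels are given as CPM, the read count of a gene relative to library size after TMM scaling, which leaves out genes with extreme ratios. CPM is not divided by gene length, so levels are compared between libraries and not between genes. Differences are log2 fold changes, 2 h minus 0 h, with the standard error of the fit. Calls were made by edgeR's quasi-likelihood test with Benjamini-Hochberg adjustment over all 20280 genes, at an adjusted p under 0.05, in a fit to 15 libraries of the series that left out the library labelled UACC62P 2 h replicate 1, which resembles UACC62R. The summed level of 16 markers of dedifferentiated melanoma was 26268 and 26366 CPM at 2 h and 25646 and 25003 CPM at 0 h, against 3109 and 2414 CPM in untreated UACC62P. THBS1 and FN1, which encode secreted matrix proteins, made up most of it, at 8996 and 9632 CPM and at 10235 and 9714 CPM at 2 h, and not all members were higher than in UACC62P: TEAD4 was at 22.2 and 15.6 CPM at 2 h, against 58.9 and 54.8 CPM in untreated UACC62P. The sum of 12 melanocyte lineage markers was 104 and 102 CPM at 2 h and 113 and 108 CPM at 0 h. In untreated UACC62P, the melanocyte sum was 2252 and 2077 CPM. Of the lineage markers, SOX10 and MITF, the transcription factors that define melanocytes, were at 24.9 and 27.3 CPM and at 46.7 and 42.9 CPM at 2 h. The pigment genes TYR, DCT, MLANA and PMEL were each under 0.5 CPM in all 4 libraries, but not all pigment genes listed were. At 2 h, SLC45A2 was at 7.69 and 13.05 CPM, RAB38 at 13.7 and 10.4 CPM and TYRP1 at 0.52 and 0.55 CPM. In untreated UACC62P, SLC45A2 was at 111.2 and 99.3 CPM, RAB38 at 59.5 and 58.2 CPM and TYRP1 at 0.69 and 1.19 CPM. Markers of epithelial, endothelial and blood cells summed to at most 2.54 CPM per list in each of the 4 libraries, with CDH1, KRT5, PECAM1, CD3E and HBB at 0 reads. In bulk RNA, fewer cells of a type and less RNA per cell cannot be told apart.

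The promoters of 5 of the genes that moved are shown here because they carry elements of the programs above. Each is the 250 bases before the gene's start on the gene's strand, from RefSeq on GRCh38.p14, a build other than the hg19 used for the counts. The windows are chr16:56682220-56682469 (plus strand) for MT1X, chr1:211579162-211579411 (minus strand) for SLC30A1, chr16:56608334-56608583 (plus strand) for MT2A, chr6:31815293-31815542 (plus strand) for HSPA1A and chr5:138465229-138465478 (plus strand) for EGR1. Capitals mark the core of the metal response element (TGCACNC or TGCGCNC, on either strand) in MT1X, SLC30A1 and MT2A, a pair of heat shock units (GAANNTTC or TTCNNGAA) in HSPA1A, and the CArG box bound by SRF in EGR1.
MT1X: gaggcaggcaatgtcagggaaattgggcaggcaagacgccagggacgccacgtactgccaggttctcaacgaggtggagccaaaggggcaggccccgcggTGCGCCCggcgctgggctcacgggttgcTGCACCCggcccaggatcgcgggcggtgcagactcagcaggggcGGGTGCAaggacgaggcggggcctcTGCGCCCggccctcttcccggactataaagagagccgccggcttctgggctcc
SLC30A1: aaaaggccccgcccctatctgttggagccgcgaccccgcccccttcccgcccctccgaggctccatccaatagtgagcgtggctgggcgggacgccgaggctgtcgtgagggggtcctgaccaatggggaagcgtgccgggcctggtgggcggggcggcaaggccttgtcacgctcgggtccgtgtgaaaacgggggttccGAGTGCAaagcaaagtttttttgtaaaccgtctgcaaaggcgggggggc
MT2A: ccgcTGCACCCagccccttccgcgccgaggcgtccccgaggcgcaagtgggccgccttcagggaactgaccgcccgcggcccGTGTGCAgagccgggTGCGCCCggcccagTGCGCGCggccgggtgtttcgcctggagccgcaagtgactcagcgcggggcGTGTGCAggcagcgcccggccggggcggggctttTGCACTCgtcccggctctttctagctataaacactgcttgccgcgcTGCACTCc
HSPA1A: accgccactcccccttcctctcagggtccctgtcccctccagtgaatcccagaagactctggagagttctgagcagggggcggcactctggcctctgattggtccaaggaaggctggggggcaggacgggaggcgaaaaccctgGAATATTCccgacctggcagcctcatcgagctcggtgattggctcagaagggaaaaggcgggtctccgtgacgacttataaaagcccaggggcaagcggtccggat
EGR1: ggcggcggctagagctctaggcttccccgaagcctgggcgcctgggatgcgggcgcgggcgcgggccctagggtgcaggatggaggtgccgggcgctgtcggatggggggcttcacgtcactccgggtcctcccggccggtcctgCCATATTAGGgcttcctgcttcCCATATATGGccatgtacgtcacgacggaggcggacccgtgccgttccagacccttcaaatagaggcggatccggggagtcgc

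The metal core matched 4 times in the MT1X window, 7 times in MT2A and 1 time in SLC30A1, and the EGR1 window also held 1 metal core outside its 2 CArG boxes. Of the 10 genes called higher, 8 had a promoter in the table and 6 of these held a metal core (75%): MT1X, MT2A, SLC30A1, EGR1, ENTREP1 and PER1. Of the 5 genes called lower, 1 of the 4 with a promoter, DNAJC3, held one (25%). Among genes called when the replicate number was fitted as a block, the core was in 15 of 36 promoters of higher genes (41.7%) and in 9 of 19 of lower genes (47.4%). The core is short and common: it was found in 32.3% of the 12576 tested genes with a promoter and in 24.7% of all 27305 promoters. The CArG box was found in 1 of the 8 higher genes, EGR1, against 1.08% of the tested genes. The pair of heat shock units was in none of the 8 and in 8.91% of the tested genes. A match describes letters in this window and is not evidence of binding.

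After 2 h, 10 genes rose and 5 fell, which is 0.074% of the genes tested (0.0493% higher and 0.0247% lower). The genes that rose were the metallothioneins MT1X, MT2A and MT1G, the zinc exporter gene SLC30A1, ENTREP1, LINC03047, EGR1, PER1, ZBTB2 and GPANK1. DNAJC3, MINPP1, MOGS, CHPF2 and VEGFC fell. Without adjustment, 854 genes had p under 0.05, and over all genes the log2 fold change had a median of 0.00. Among the 11505 genes whose mean log2 CPM was at least 2, the 5th and 95th percentiles of the log2 fold change were -0.21 and 0.21, 13 genes were at least 2-fold higher at 2 h and 3 at least 2-fold lower. With the replicate number as a block, which removes differences shared by same-numbered libraries, 48 genes rose (0.237% of genes tested) and 26 fell (0.128%), 0.365% either way, and all 15 genes were among them. With 2 libraries a group, lack of overlap is common: over all genes tested, 3032 lay wholly higher at 2 h (15%) and 3138 wholly lower (15.5%).

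**Figure D1:**
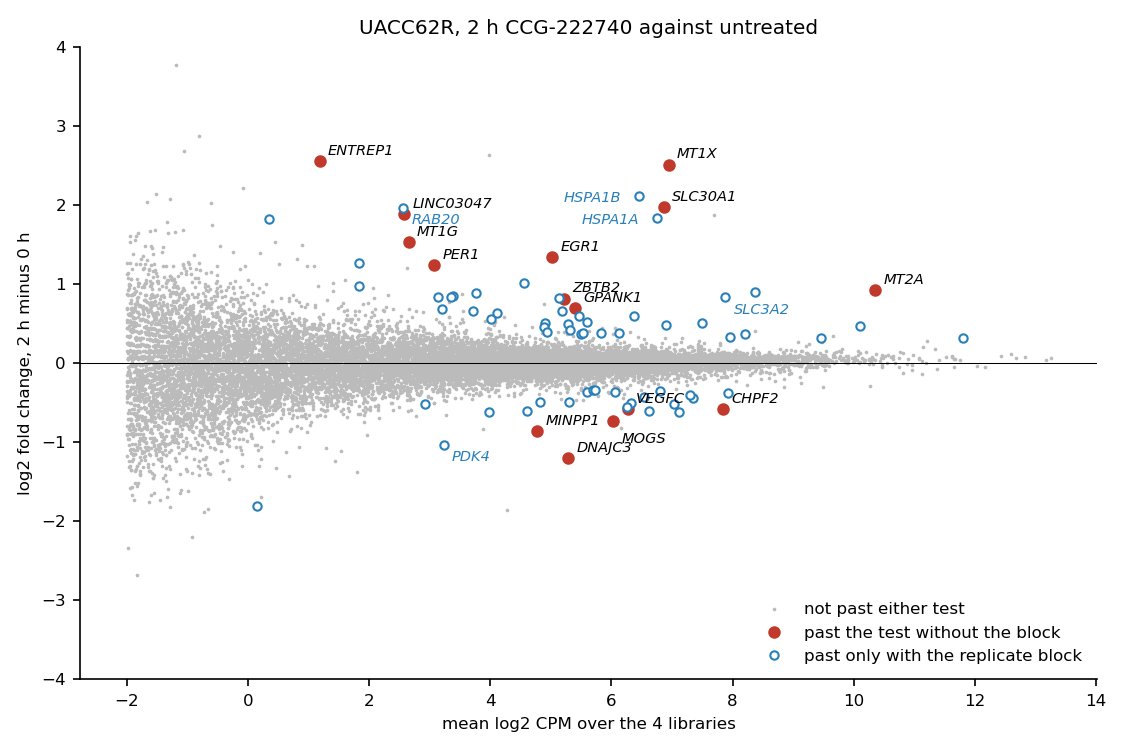
Log2 fold change of UACC62R, 2 h minus 0 h, against the mean log2 CPM of the 4 libraries, 1 point per gene whose mean log2 CPM was at least -2. Red points passed the test without the block, open blue circles only with the replicate block, and grey points neither; most genes lie close to 0, and MT1X, SLC30A1, MT2A, HSPA1A and HSPA1B stand above them at high levels.

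Metal response genes had the best supported change. MT1X, a cysteine-rich protein that binds zinc and copper, was at 315 and 275 CPM at 2 h, against 55.6 and 47.8 CPM at 0 h. Both treated libraries lay far above both untreated ones, a log2 difference of 2.51 ± 0.18 (adjusted p = 2.55e-05, edgeR's quasi-likelihood test). SLC30A1, which moves zinc out of the cytosol across the plasma membrane, was at 229 and 236 CPM at 2 h, against 52.0 and 66.2 CPM at 0 h. The groups did not overlap, and the log2 difference was 1.97 ± 0.17 (edgeR adjusted p = 0.000139). MT2A, a widely expressed metallothionein, was at 1704 and 1880.2 CPM at 2 h, against 954 and 942 CPM at 0 h, a log2 difference of 0.92 ± 0.10 (edgeR adjusted p = 0.00117). Its rise was smaller as a ratio than that of MT1X, and again no library of one group reached into the other. MT1G was at 12.5 and 9.04 CPM at 2 h, against 3.99 and 3.47 CPM at 0 h, a log2 difference of 1.53 ± 0.23 (edgeR adjusted p = 0.0207).

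The list of metal and zinc genes held 33 members, of which 25 were tested. Of these, 5 rose (background 0.0493% called higher), none fell, and the count was the same with the block. The fifth was ZBTB2, a zinc finger transcriptional regulator that neither carries nor stores metal, at 49.1 and 50.1 CPM at 2 h, against 26.5 and 29.9 CPM at 0 h (log2 difference 0.81 ± 0.10, edgeR adjusted p = 0.00396). The median log2 fold change of the 25 was 0.07, against 0.00 for all genes, so most members stayed near their untreated level. This list and those below were written with earlier results of these data known. Their counts of called members therefore describe the lists and are no independent support. MTF1, the zinc-sensing activator itself, was at 37.2 and 40.4 CPM at 2 h and 41.3 and 41.0 CPM at 0 h, a log2 difference of -0.08 ± 0.09 (95% interval -0.28 to 0.11). SLC39A10, a zinc importer, was at 49.8 and 59.7 CPM at 2 h and 63.6 and 77.3 CPM at 0 h. Its groups did not overlap, and the log2 difference of -0.36 ± 0.15 was not called in the fits to 15 libraries (edgeR adjusted p = 1, and 0.461 with the block), but was in the 8 UACC62R libraries alone with the block (0.0351). MT1A, MT1B, MT1E, MT1F, MT1L and MT1M were at 0 reads in all 4 libraries, and MT1H and MT3 had 1 read each, so they were not tested. Metallothionein genes are near-identical in places and reads with several alignments stayed uncounted, so the levels of single members are uncertain. With 3 reads as the limit that a count of 0 allows, the members at 0 reads could lie at up to 0.0939 to 0.11 CPM by unique reads. That limit does not hold for MT1H and MT3 in a library with 1 read.

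**Figure D2:**
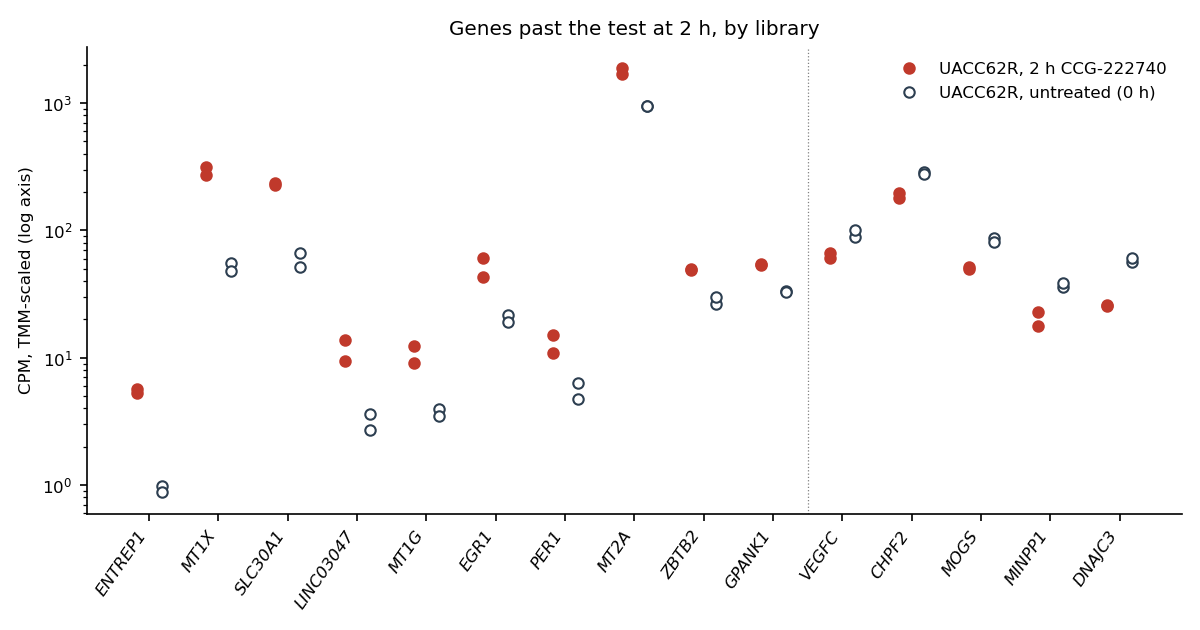
Level of each of the 15 genes that passed the test, in TMM-scaled CPM on a log axis, in the 2 libraries of UACC62R at 2 h (filled red) and the 2 untreated libraries (open), 1 point per library. Genes left of the dotted line rose and those right of it fell, and the groups do not overlap for any of the 15, as was so for 15% of all genes on the higher side and 15.5% on the lower.

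The other genes that rose have varied roles. ENTREP1, an endosomal membrane protein that helps the ubiquitin ligase ITCH act on the chemokine receptor CXCR4, was at 5.65 and 5.33 CPM at 2 h (163 and 145 reads), against 0.989 and 0.877 CPM at 0 h (30 and 28 reads). That is a log2 difference of 2.55 ± 0.30 (edgeR adjusted p = 0.00238), at a low level. EGR1, an immediate early zinc finger transcription factor, was at 60.7 and 43.1 CPM at 2 h, against 21.7 and 19.3 CPM at 0 h (log2 difference 1.34 ± 0.19, edgeR adjusted p = 0.0139). PER1, a repressor of the circadian clock that is also an early target of CREB and of the glucocorticoid receptor, was at 15.1 and 10.9 CPM at 2 h, against 6.33 and 4.73 CPM at 0 h. Its log2 difference was 1.24 ± 0.20 (edgeR adjusted p = 0.0297). The treated libraries of EGR1 and PER1 differed from each other more than the untreated ones did, but both lay above both of them. LINC03047, a long non-coding RNA, was at 13.8 and 9.37 CPM at 2 h, against 3.59 and 2.69 CPM at 0 h (log2 difference 1.89 ± 0.28, edgeR adjusted p = 0.0153). Whether reads were counted by strand was not stated, so reads of an overlapping gene on the other strand could be part of this value. GPANK1, a protein with a G-patch and ankyrin repeats, was at 54.1 and 53.7 CPM at 2 h, against 33.5 and 33.0 CPM at 0 h (log2 difference 0.70 ± 0.09, edgeR adjusted p = 0.00396).

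Among the genes that fell, DNAJC3 had the largest change. DNAJC3, a co-chaperone in the lumen of the endoplasmic reticulum (ER) that is also known as an inhibitor of the kinases PERK and PKR, was at 25.8 and 25.7 CPM at 2 h, against 57.0 and 61.2 CPM at 0 h. The log2 difference was -1.20 ± 0.12 (edgeR adjusted p = 0.000644). MOGS, the glucosidase that removes the outermost glucose from new N-glycans in the ER, was at 49.4 and 52.0 CPM at 2 h, against 87.1 and 80.9 CPM at 0 h (log2 difference -0.73 ± 0.09, edgeR adjusted p = 0.00238). MINPP1, an inositol polyphosphate phosphatase of the ER lumen, was at 17.9 and 22.8 CPM at 2 h, against 35.8 and 38.4 CPM at 0 h (log2 difference -0.87 ± 0.11, edgeR adjusted p = 0.0042). In each of these genes the treated libraries lay below the untreated ones with no overlap. CHPF2, an enzyme that extends chondroitin chains in the Golgi, was at 179 and 196 CPM at 2 h, against 286 and 275 CPM at 0 h (log2 difference -0.58 ± 0.09, edgeR adjusted p = 0.0168). VEGFC, the growth factor that drives growth of lymphatic vessels, was at 60.7 and 66.1 CPM at 2 h, against 88.9 and 100.5 CPM at 0 h (log2 difference -0.58 ± 0.10, edgeR adjusted p = 0.0477). It was the only called gene among the 15 tested angiogenic factors (background 0.0247% called lower), whose median was -0.13.

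MT1X, SLC30A1, DNAJC3 and MT2A kept the call when each of the 4 libraries was left out in turn, and the other 11 genes lost it at least once. ENTREP1 lost it without 0 h replicate 2 (edgeR adjusted p = 0.0857) and MOGS without 2 h replicate 1 (0.059). GPANK1 lost it without either of these libraries (0.0857 without 0 h replicate 2 and 0.059 without 2 h replicate 1), as did MINPP1 (0.0857 and 0.0775). ZBTB2 lost it without 2 h replicate 1 (0.059) and without 0 h replicate 1 (0.107). EGR1, LINC03047, MT1G and PER1 lost it without any library except 2 h replicate 2, with adjusted p up to 0.321, 0.379, 0.422 and 0.714. CHPF2 and VEGFC lost it without each of the 4, with adjusted p of 0.0589 to 0.401 and 0.102 to 0.714. All 15 kept their direction each time.

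Heat shock chaperones rose when the replicate block was used. HSPA1A, the inducible cytosolic HSP70, was at 169 and 242 CPM at 2 h, against 51.5 and 63.4 CPM at 0 h. HSPA1B, its near-identical copy, was at 147 and 225 CPM at 2 h, against 35.8 and 49.8 CPM at 0 h. In both genes replicate 2 was above replicate 1 in each group, and the treated libraries were far above the untreated ones. The log2 differences were 1.84 ± 0.32 and 2.12 ± 0.37, with edgeR adjusted p = 0.054 and 0.0561 without the block and 3.81e-05 and 2.65e-05 with it. DNAJB1, the HSP40 partner of HSP70, was at 409 and 498 CPM at 2 h, against 232 and 257 CPM at 0 h (log2 difference 0.89 ± 0.18, edgeR adjusted p = 0.151 without the block and 2.65e-05 with it). In the 8 UACC62R libraries alone, HSPA1A and HSPA1B were called without the block as well (edgeR adjusted p = 0.0158 and 0.0209), and DESeq2 without a block called all 3 genes (adjusted p = 0.00302, 0.00292 and 0.00024). These 3 genes kept the blocked call without each of the 4 libraries, with adjusted p up to 0.00707. Reads shared by HSPA1A and HSPA1B were not counted, so the split between them is uncertain.

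In the fits to 15 libraries, none of the 22 chaperone genes tested was called without the block and 7 rose with it (background 0.237% called higher with the block). The median log2 fold change of the list was 0.23, against 0.00 for all genes, and 21 of the 22 were above 0. The other 4 were DNAJB4 (log2 difference 0.83 ± 0.28), the HSP70 co-chaperone BAG3 (0.50 ± 0.12), the HSP90 co-chaperone FKBP4 (0.33 ± 0.07) and the constitutive HSP70 HSPA8 (0.32 ± 0.12). DNAJB4 and HSPA8 lost the blocked call without replicate 1 of either group (edgeR adjusted p up to 0.106 and 0.108), and BAG3 and FKBP4 without any of the 4 libraries (up to 0.497 and 0.202). HSF1, the activator of these genes, was at 162 and 154 CPM at 2 h and 149 and 147 CPM at 0 h (log2 difference 0.09 ± 0.07, not called). The heat shock pair was found in the HSPA1A and HSPA1B windows and 4 times in that of HSPA8, where matches overlap one another, and in none of the DNAJB1 window. Among the 36 genes that rose with the block and had a promoter, 5 held the pair (13.9%), against 8.91% of the tested genes. They were HSPA1A, HSPA1B, HSPA8, JUN and ZNF470. Of the 19 genes that fell with the block and had a promoter, 2 held it (10.5%).

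HMOX1, the haem-degrading enzyme induced by NRF2 and by heavy metals, was at 439 and 354 CPM at 2 h, against 115 and 102 CPM at 0 h. Both treated libraries were more than 3-fold above both untreated ones, yet the log2 difference of 1.87 ± 0.51 was not called with 15 libraries (edgeR adjusted p = 0.7, and 0.0828 with the block). The 2 libraries of UACC62P at 6 h, which share the estimate of spread, stood at 128 and 761 CPM. In a fit to the 8 UACC62R libraries alone, HMOX1 was called (edgeR adjusted p = 0.0011, and 3.47e-11 with the block). None of the other 22 NRF2 targets tested was called in the fits to 15 libraries, and the median of the 23 was 0.10. Of the 23, 20 were above 0. At 2 h, 9 lay wholly higher and 0 wholly lower, against 15% and 15.5% of all genes tested.

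**Figure D3:**
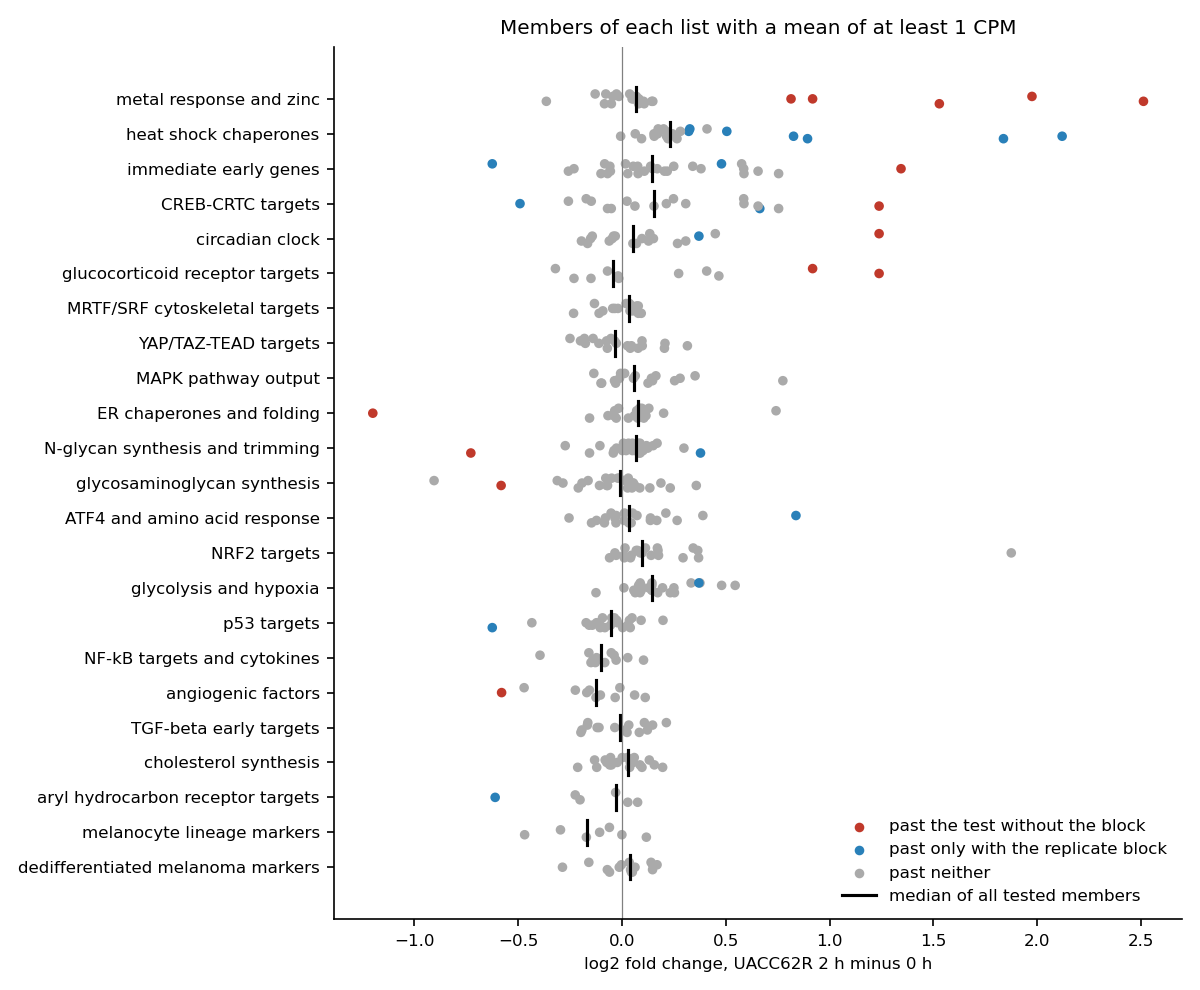
Log2 fold change, UACC62R 2 h minus 0 h, of the members of 23 gene lists that averaged at least 1 CPM, 1 point per gene, coloured by whether the gene passed the test without the block (red), only with the replicate block (blue) or neither (grey). The black bar is the median over all tested members; the metal, chaperone and early gene lists have members far to the right, while the MRTF/SRF and YAP/TAZ lists lie between -0.25 and 0.32 around 0.

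Cytoskeletal genes activated by MRTF and SRF were not called at 2 h. Of the 24 targets on the list, 21 were tested and none was called with or without the block, in 15 libraries or in the 8 of UACC62R with the block, with a median log2 fold change of 0.04. ACTA2, smooth muscle actin, was at 19.4 and 20.2 CPM at 2 h and 21.9 and 20.8 CPM at 0 h, a log2 difference of -0.11 (95% interval -0.35 to 0.13). TAGLN, an actin-binding protein, was at 5.33 and 8.31 CPM at 2 h and 6.23 and 9.77 CPM at 0 h, and its groups overlapped (-0.23, 95% interval -0.91 to 0.44). VCL and TPM1, the genes for vinculin and a tropomyosin, had log2 differences of -0.09 ± 0.09 and 0.07 ± 0.11. MRTFA was at 78.5 and 74.6 CPM at 2 h and 88.2 and 78.1 CPM at 0 h (-0.12 ± 0.09), and MRTFB at 35.3 and 29.1 CPM at 2 h and 39.3 and 35.6 CPM at 0 h (-0.22 ± 0.15). SRF was at 84.7 CPM in both libraries at 2 h and at 86.4 and 79.2 CPM at 0 h (0.03 ± 0.09). PIR, the gene for pirin, a nuclear protein that this compound family has been reported to bind, had a log2 difference of -0.04 ± 0.10.

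Targets of YAP and TAZ, coactivators that share matricellular targets with MRTF, were not called either: 0 of 22, with a median of -0.03. CCN1 and CCN2, secreted matricellular proteins, were both higher in the treated libraries without reaching a call. CCN1 was at 118 and 99.5 CPM at 2 h, against 95.1 and 93.6 CPM at 0 h (0.20 ± 0.12), and CCN2 at 147 and 117 CPM at 2 h, against 111 and 101 CPM at 0 h (0.32 ± 0.12, unadjusted p = 0.0203 by the edgeR test). At 24 h their levels were 19.0 and 23.2 CPM for CCN1 and 30.4 and 35.3 CPM for CCN2. ANKRD1, another target, was near the limit of counting, at 0.901 and 0.882 CPM at 2 h and 0.659 and 1.00 CPM at 0 h.

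Over all genes tested, 0.0493% were called higher without the block, and 0.237% higher and 0.128% lower with it. Of 30 immediate early genes tested, 1 rose without the block, EGR1, and with it 2 rose and 1 fell. The second was JUN, a subunit of AP-1, at 144 and 137 CPM at 2 h, against 105 and 96.8 CPM at 0 h (log2 difference 0.48 ± 0.08, edgeR adjusted p = 0.0502 without the block and 0.00039 with it). JUN kept its blocked call without each of the 4 libraries. BTG2, an antiproliferative gene induced by p53, was at 14.0 and 11.5 CPM at 2 h, against 20.6 and 18.7 CPM at 0 h, and was called lower only with the block (log2 difference -0.62 ± 0.16, edgeR adjusted p = 0.0207 with the block, and 0.164 to 0.278 without each of the 4 libraries). FOS, the partner of JUN, was at 5.06 and 5.33 CPM at 2 h and 2.54 and 3.60 CPM at 0 h, and its groups did not overlap, but it was not called (0.75 ± 0.17). The list's median was 0.14. Of 18 genes that report ERK activity, none was called, with a median of 0.06. The one with the smallest p was the ERK phosphatase DUSP5, at 16.2 and 10.3 CPM at 2 h and 7.55 and 7.95 CPM at 0 h (0.77 ± 0.20, edgeR adjusted p = 0.494, and 0.0159 in the 8 UACC62R libraries with the block).

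PER1 stood on 3 lists, where the background was 0.0493% called higher, and with the block 0.237% higher and 0.128% lower. Among 19 CREB targets, it was the 1 called gene, and with the block RGS2, a brake on G protein signalling, also rose (0.66 ± 0.16) while PDE4B, a cAMP phosphodiesterase, fell (-0.49 ± 0.11). Of 21 clock genes tested, PER1 rose, and BHLHE40, a repressor in the clock and a hypoxia target, rose with the block (0.37 ± 0.15). Of 14 glucocorticoid receptor targets, PER1 and MT2A rose, and the list's median was -0.04. RGS2 and PDE4B lost the blocked call without each of the 4 libraries (edgeR adjusted p up to 0.573 and 0.574), and BHLHE40 without any except 2 h replicate 1 (up to 0.437).

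Lists of the secretory pathway had few called members. The background was 0.0247% called lower without the block, and 0.237% called higher and 0.128% lower with it. Of 23 ER chaperones and folding genes, DNAJC3 alone was called in the fits to 15 libraries, and the median was 0.08. DNAJB9, another ER co-chaperone, was at 38.7 and 38.0 CPM at 2 h and 22.7 and 23.1 CPM at 0 h, which was not called in 15 libraries (0.74 ± 0.22, edgeR adjusted p = 0.821, and 0.0828 with the block) but was in the 8 UACC62R libraries with the block (0.75 ± 0.09, edgeR adjusted p = 0.000165). Of 30 genes of N-glycan synthesis, MOGS fell, and with the block ALG2, a mannosyltransferase, rose (0.38 ± 0.11), though without any library except 2 h replicate 2 it lost that call (edgeR adjusted p up to 0.679). CHPF2 was the 1 called gene of 29 in glycosaminoglycan synthesis. Among 23 targets of ATF4, SLC3A2, the heavy chain of the cystine and large amino acid transporters, was at 323 and 307 CPM at 2 h, against 178 and 175 CPM at 0 h. In 15 libraries it passed edgeR's test with the block (0.84 ± 0.15, edgeR adjusted p = 0.0619 without the block and 0.00388 with it), and it was called without a block in the 8 UACC62R libraries (0.0153) and by DESeq2 (4.33e-05). It lost the blocked call without any library except 2 h replicate 2 (edgeR adjusted p up to 0.148). DDIT3, the ATF4 target known as CHOP, was at 7.93 and 9.33 CPM at 2 h and 10.4 and 10.2 CPM at 0 h. It was not called in the edgeR fits to 15 libraries or in the 8 UACC62R libraries with the block.

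No member of the lists for cholesterol synthesis (22 tested), early TGF-beta targets (16), NF-kB targets and cytokines (18), melanocyte lineage markers (12) or dedifferentiated melanoma markers (16) was called in either fit to 15 libraries. AXL, a receptor kinase of the dedifferentiated state, was at 231 and 281 CPM at 2 h and 229 and 267 CPM at 0 h, and BRAF at 32.5 and 32.2 CPM at 2 h and 34.9 and 34.8 CPM at 0 h. The medians of these lists were 0.03, -0.01, -0.10, -0.17 and 0.04. Of the 12 melanocyte lineage markers, some of them at few reads, 1 was above 0. At 2 h, 5 of them lay wholly lower and 0 wholly higher, against 15.5% and 15% of all genes tested. Of the 26 genes of glycolysis and hypoxia, BHLHE40 rose with the block (background 0.237% called higher), 25 were above 0 and the median was 0.14. The 22 p53 targets had a median of -0.05, with BTG2 lower with the block (background 0.128% called lower).

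The genes called only with the block number 59. By size of change, 12 that rose and 12 that fell were taken among those at a mean log2 CPM of at least 2 with no overlap between the groups. Besides HSPA1A, HSPA1B, DNAJB1, DNAJB4 and SLC3A2, those that rose were RAB20, HILPDA, SERTAD4, KLHL23, RNF122, ZNF470 and MXD1. RAB20, a small GTPase of endosomes, was at 15.9 and 9.67 CPM at 2 h, against 4.98 and 1.60 CPM at 0 h (1.97 ± 0.45), and HILPDA, a lipid droplet protein induced by hypoxia, was at 41.6 and 26.4 CPM at 2 h, against 18.1 and 15.5 CPM at 0 h (1.02 ± 0.17). In both, replicate 1 was the higher in each group. SERTAD4, KLHL23, RNF122, ZNF470 and MXD1, a partner of MAX that opposes MYC, rose by 0.68 to 0.88 on the log2 scale.

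Those that fell with the block were PDK4, BTG2, TIPARP, LFNG, TFAP2C, TNFRSF11B, CHST6, DLX1, SMG9, PDE4B, PLAUR and TPBG. PDK4, the kinase that shuts off pyruvate dehydrogenase, was at 5.96 and 7.24 CPM at 2 h, against 11.9 and 15.1 CPM at 0 h (-1.03 ± 0.21). TIPARP, a mono-ADP-ribosyltransferase induced by the aryl hydrocarbon receptor, was at 68.8 and 90.4 CPM at 2 h, against 116 and 127 CPM at 0 h (-0.61 ± 0.13). It was the 1 called gene of 7 tested targets of that receptor (background 0.128% called lower with the block). CYP1A1, the best known of these targets, was at 12.1 and 12.2 CPM at 2 h and 11.8 and 12.1 CPM at 0 h. The remaining 9 after BTG2, from LFNG, which modifies Notch, to TPBG, an oncofetal membrane protein, fell by 0.43 to 0.60 on the log2 scale. They include TNFRSF11B, a decoy receptor for RANKL, at 97.5 and 123 CPM at 2 h, against 147 and 169.5 CPM at 0 h, and PLAUR, the urokinase receptor, at 132 and 146 CPM at 2 h, against 197 and 181 CPM at 0 h. RAB20 and PDK4 lost the blocked call without 0 h replicate 2 or 2 h replicate 1 (edgeR adjusted p up to 0.348 and 0.373), as did HILPDA (up to 0.147). TIPARP lost it without replicate 1 of either group (up to 0.152), and TNFRSF11B and PLAUR without any library except 2 h replicate 2 (up to 0.575 and 0.679). All the other genes of these 24, apart from HSPA1A, HSPA1B and DNAJB1, also lost it without at least 1 of the 4 libraries.

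The 8 UACC62R libraries alone, fitted with the block, gave the most calls of the fits that kept the filter on low counts: 117 genes higher (0.637% of the 18359 tested there) and 68 lower (0.37%), 1.01% either way. Without the block these libraries gave 10 higher (0.0545%) and 3 lower (0.0163%), 0.0708% either way, and DESeq2 on 15 libraries gave 30 higher (0.148%) and 13 lower (0.0641%), 0.212% either way. In the blocked fit to 8 libraries, 14 of the 22 chaperone genes rose and none fell, among them HSPH1, an HSP110 protein, at 343 and 428 CPM at 2 h, against 258 and 323 CPM at 0 h (0.41 ± 0.04, edgeR adjusted p = 2.27e-05). Of the metal list, 5 rose and SLC39A10 fell, and of the early genes 3 rose and 2 fell. HMOX1 and OSGIN1 rose among the 23 NRF2 targets, and DUSP5 and PHLDA2 among the 18 ERK reporters. DDIT4, SLC3A2 and GDF15 rose among the 23 ATF4 targets, and EGLN1, SLC2A3 and BHLHE40 among the 26 genes of glycolysis and hypoxia. No member of these 2 lists fell there. No member of the MRTF/SRF, YAP/TAZ, NF-kB, cholesterol, melanocyte or dedifferentiated lists was called there, and ID1 was the 1 TGF-beta target that was.

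The 2 h values were set within the time course of UACC62R, in which every comparison shares the 0 h libraries. MT1X stood at 55.6 and 47.8 CPM at 0 h, 315 and 275 CPM at 2 h, 558 and 506 CPM at 6 h, and 207 and 160.5 CPM at 24 h. MT2A likewise was highest at 6 h, with 954 and 942, 1704 and 1880.2, 2631 and 2677, and 2085 and 1920.5 CPM at the 4 times. Between 6 h and 2 h themselves, the log2 differences of MT1X and MT2A were 0.85 ± 0.17 and 0.57 ± 0.10, called with the block only (edgeR adjusted p = 0.128 and 0.0882 without it, 0.00629 and 0.00265 with it). SLC30A1 was already near its highest level at 2 h, with 52.0 and 66.2, 229 and 236, 199.6 and 253, and 109 and 116 CPM. DNAJC3 was lowest at 6 h, with 57.0 and 61.2, 25.8 and 25.7, 20.3 and 20.7, and 30.4 and 35.3 CPM. Its difference between 6 h and 2 h was not called (-0.32 ± 0.12, edgeR adjusted p = 0.66, and 0.171 with the block). CHPF2 went on down after 2 h, with 286 and 275, 179 and 196, 110.1 and 114, and 126 and 118 CPM, and it differed between 6 h and 2 h itself (log2 difference -0.74 ± 0.09, edgeR adjusted p = 0.0141).

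EGR1, ZBTB2, GPANK1 and PER1 had their highest level in UACC62R at 2 h. EGR1 stood at 21.7 and 19.3 CPM at 0 h, 60.7 and 43.1 CPM at 2 h, 32.3 and 25.4 CPM at 6 h, and 33.8 and 24.4 CPM at 24 h. It differed from 0 h by 0.49 ± 0.19 at 6 h and 0.51 ± 0.19 at 24 h (edgeR adjusted p = 0.426 and 0.0996), so without the block it was called at 2 h alone among the 3 times, while with the block it was called at all 3 (edgeR adjusted p = 0.0106 at 6 h and 0.00115 at 24 h). The difference between 6 h and 2 h was -0.85 ± 0.19 (edgeR adjusted p = 0.218 without the block and 0.000482 with it). PER1 differed from 0 h by 0.77 ± 0.20 at 6 h and by 0.52 ± 0.20 at 24 h (edgeR adjusted p = 0.123 and 0.0978, and 0.0218 and 0.0394 with the block), and the difference between 6 h and 2 h was not called. ZBTB2 was at 38.1 and 41.2 CPM at 6 h and at 24.5 and 23.2 CPM at 24 h, where it lay below its untreated values of 26.5 and 29.9 CPM without a call (-0.24 ± 0.10). Between 6 h and 2 h the log2 differences were -0.32 ± 0.10 for ZBTB2 and -0.33 ± 0.09 for GPANK1. Neither was called (edgeR adjusted p = 0.481 and 0.39, and 0.0913 and 0.0654 with the block). HSPA1A stood at 274 and 338 CPM at 6 h and at 57.9 and 82.4 CPM at 24 h, where it was no longer called (0.29 ± 0.31). Its difference between 6 h and 2 h was not called (0.57 ± 0.31, edgeR adjusted p = 0.799, and 0.149 with the block). Genes called against 0 h numbered 15 at 2 h, 135 at 6 h (0.38% of genes tested higher and 0.286% lower, 0.666% either way) and 2984 at 24 h (6.48% higher and 8.23% lower, 14.7% either way).

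**Figure D4:**
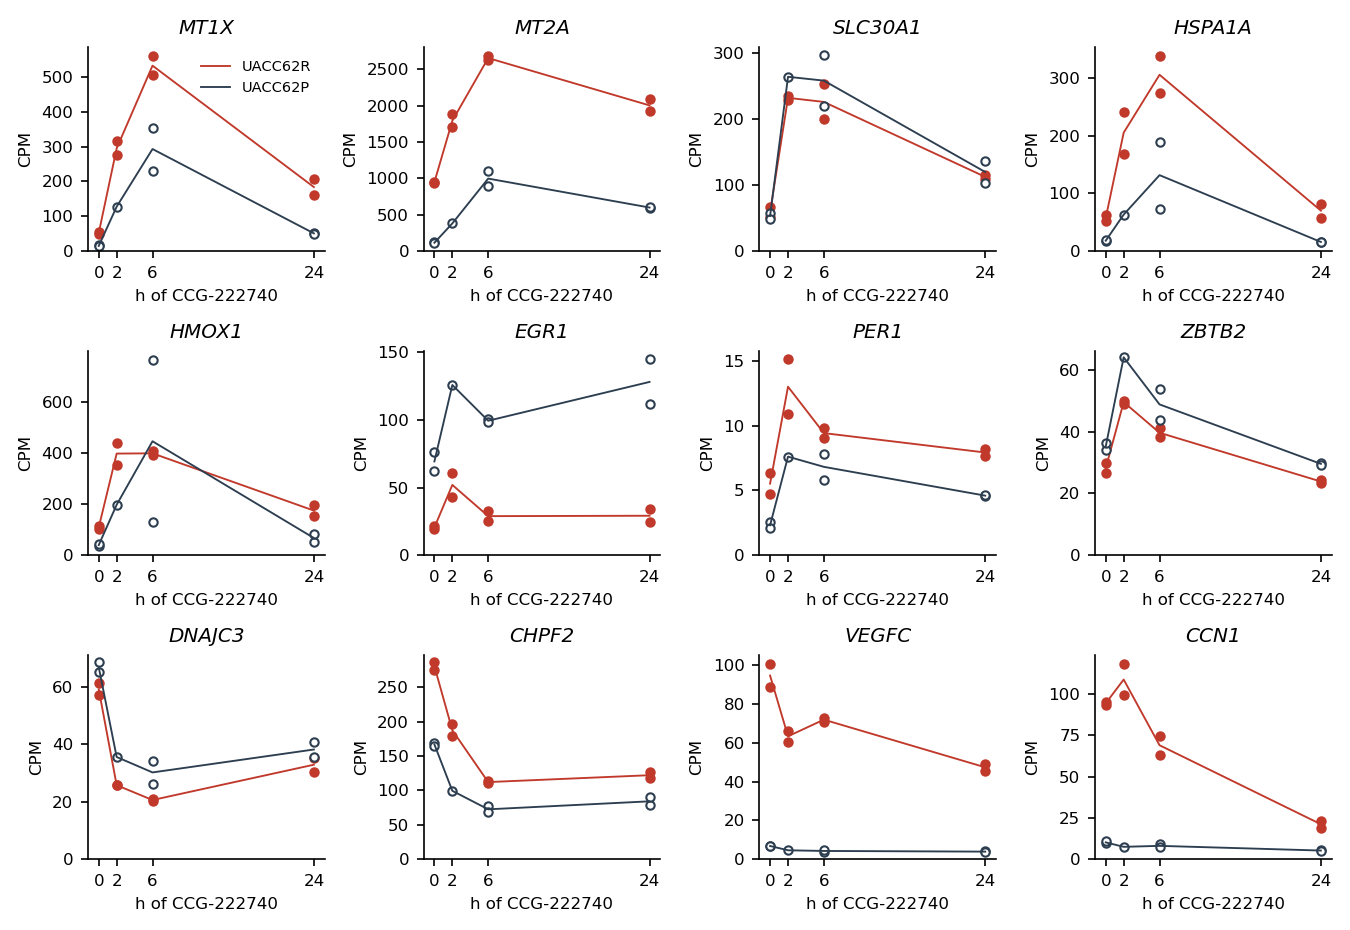
CPM of 12 genes at 0, 2, 6 and 24 h of CCG-222740 in UACC62R (red) and UACC62P (dark, open points), 1 point per library and lines through the means, each axis starting at 0; UACC62P has 1 library at 2 h. MT1X, MT2A and HSPA1A of UACC62R are highest at 6 h, EGR1, PER1 and ZBTB2 of UACC62R at 2 h, and CCN1 of UACC62R falls to 19.0 and 23.2 CPM at 24 h. Of those named as highest at 6 h or 2 h, only MT1X, MT2A and EGR1 were called between these times, and only with the block.

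The parental line gave a second set of 2 h values. In UACC62P the 15 called genes all differed in the same direction at 2 h, and 9 of them were called there without the block: MT1X, SLC30A1, MT2A, ENTREP1, MOGS, ZBTB2, MINPP1, CHPF2 and PER1. Those 9 were all the genes called in UACC62P at 2 h, 6 higher (0.0296% of genes tested) and 3 lower (0.0148%), 0.0444% either way. The comparisons in the 2 lines share no library, and over all 20280 genes 54.9% had the same direction. Of the 74 genes called with the block, 69 had it (93.2%). In both lines the untreated libraries carry different label texts from the treated ones. A shared direction therefore cannot tell an effect of the compound apart from one of vehicle, handling or time of preparation. MT1X was at 127 CPM in UACC62P at 2 h, against 16.1 and 13.6 CPM at 0 h, and SLC30A1 at 264 CPM at 2 h, against 57.1 and 49.3 CPM at 0 h. VEGFC was low in that line, at 4.54 CPM at 2 h and 6.89 and 6.63 CPM at 0 h.

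The difference of response between UACC62R and UACC62P was tested itself. No gene was called by edgeR's quasi-likelihood test with or without the block (0%), 586 had an unadjusted p under 0.05, and DESeq2 called 1, MT2A. The rise of MT2A was smaller in UACC62R by 0.81 ± 0.15 on the log2 scale (edgeR adjusted p = 1, and 0.281 with the block; DESeq2 adjusted p = 0.0481), from untreated levels of 954 and 942 CPM in UACC62R and 124 and 105 CPM in UACC62P. For MT1X the log2 difference of response was -0.59 ± 0.27, for DNAJC3 -0.29 ± 0.19, for EGR1 0.48 ± 0.29, for HSPA1A 0.03 ± 0.51 and for CCN2 0.82 ± 0.21, none of them called. CCN2 and CCN1, higher at 2 h in UACC62R, were lower at 2 h in UACC62P. There CCN2 was at 13.9 CPM at 2 h, against 18.5 and 21.1 CPM at 0 h, and CCN1 at 7.42 CPM, against 9.45 and 10.8 CPM. TIPARP, which fell in UACC62R with the block, was at 70.8 CPM in UACC62P at 2 h and 57.0 and 74.5 CPM at 0 h, a difference of response of -0.72 ± 0.20 (edgeR adjusted p = 1). UACC62P had 1 library at 2 h, whose spread was taken to be that of the other groups, and a call that was missed does not show that the lines respond alike.

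**Figure D5:**
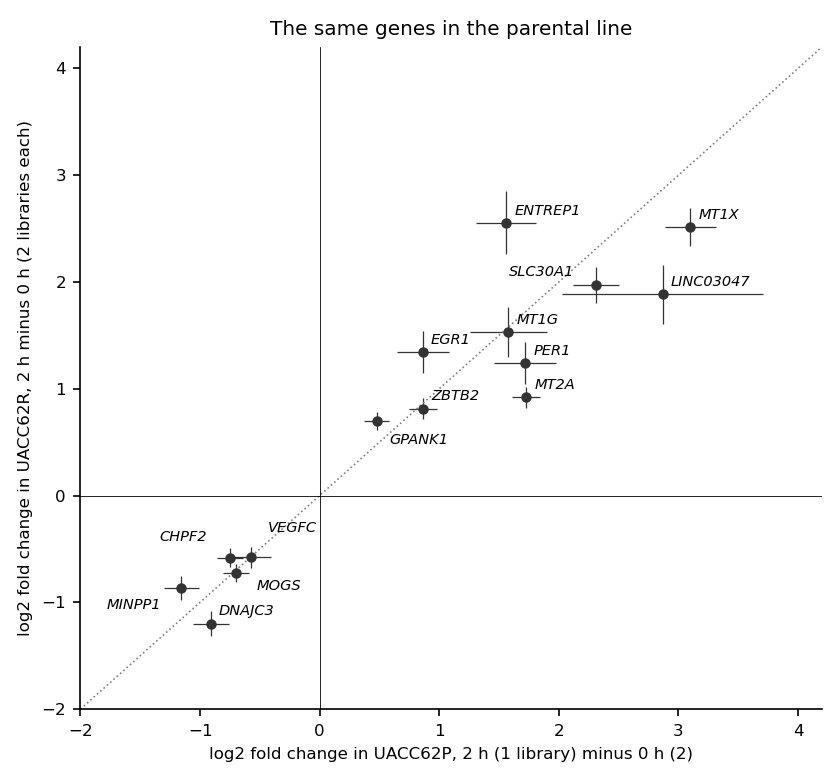
Log2 fold change at 2 h of the 15 genes called in UACC62R (vertical axis, 2 libraries a group) against the same genes in UACC62P (horizontal axis, 1 treated and 2 untreated libraries), with bars of 1 standard error and a dotted line of equal change. All 15 lie in the quadrants of equal sign; MT2A lies below the line, at 0.92 in UACC62R and 1.73 in UACC62P.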

How the data were processed

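Poly(A) RNA was sequenced as single 50 bp reads from stranded libraries, per the labels' protocols. Per the submitters' processing notes, the build was hg19 and the tools named were HISAT2 2.1.0, HTSeq 0.6.1, Trimmomatic 0.33, FastQC 0.11.5 and bcl2fastq 2.19.0. The authors deposited raw read counts per gene, 1 table per library, for 63677 Ensembl IDs with 5 summary lines, which stayed out of library sizes and tests. In the 4 libraries, 13.5 to 16.9% of reads were not aligned, and 3.74 to 4.23% of uniquely aligned reads lay in no gene. Symbols came from a table that matched 52181 IDs.

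Counts were scaled by TMM, filtered by filterByExpr and fitted with 1 coefficient per group in edgeR 4.0.16 (limma 3.58.1, R 4.3.3), on 15 libraries with 7 residual degrees of freedom. Standard errors were obtained as log2 fold change over the root of the F statistic, and intervals are 95%. Deviations of same-numbered libraries from their group means correlated at 0.68 between UACC62R 2 h and 0 h. Over all 21 pairs of groups the correlation was 0.18 to 0.72. In the blocked fits the numbers were taken to pair the libraries, on the evidence of the counts since no label pairs them. The main fit, which gave the 10 higher and 5 lower genes, treated the libraries as unpaired. Its common dispersion was 0.00985, against 0.00425 with the block. Replicates differed by more than sampling noise (chi-square per degree of freedom 10.9 at 2 h and 14.1 at 0 h). The fit was run on simulated counts as a check. These held no difference shared by same-numbered libraries, so the check cannot show how either fit behaves with one.

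The members, the 26 gene lists (513 entries) and the tests were chosen with earlier results of these data known. Named were all called genes; 12 each way of those called only with the block; up to 4 called members per list whose mean log2 CPM reached 0, failing which the member of lowest p; and 22 genes always given. DNAJB9, FOS, DDIT3, CYP1A1, VCL, TPM1, HSPH1, OSGIN1, PHLDA2 and ID1 were named after their values were seen. So were DDIT4, GDF15, EGLN1, SLC2A3 and the chaperones BAG3, FKBP4 and HSPA8. Alternatives were DESeq2 1.42.0 size factors and Wald test, other sets of libraries, no filter, and each library left out. Limits for a count of 0 cover counting error only, while intervals of fold changes include the spread between libraries.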

Additional observations from a re-analysis of the deposited data

How the results depend on the processing

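The counts of called genes (10 higher, 5 lower) depended on how spread was estimated. With the replicate block they were 48 and 26; with the 8 UACC62R libraries 10 and 3, and with the block there 117 and 68; with the 4 compared libraries alone 13 and 2; with all 16 libraries 0 and 0 by edgeR (295 genes at unadjusted p under 0.05), where the library labelled UACC62P 2 h replicate 1 raised the common dispersion to 0.0622, against 0.00985 with 15. No filter gave 80 and 43, and the DESeq2 Wald test 30 and 13. DESeq2 size factors and unscaled library sizes each gave 11 and 5. Leaving out 1 library gave 4 to 12 higher and 1 to 4 lower, and with the block, an alternative added after seeing the data, 17, 18, 22 and 39 higher and 5, 6, 10 and 18 lower. For the difference of response between the lines, edgeR called 0, but 17 with no filter, DESeq2 called 1 and the block without 0 h replicate 1 called 1, while the other fits with 1 library left out called 0. All 15 genes stayed called with the block, with DESeq2 and with no filter, and 9 in the 8 UACC62R libraries. Among the named genes, log2 fold changes that turned round belonged to uncalled ones. Their main values were -0.233 for TAGLN and between -0.0412 and 0.0994 for the others. SOX10 was at 0.00326 in the 8 UACC62R libraries, 0.00324 there with the block, 0.000756 in 16 libraries, 0.00305 with DESeq2 size factors, 0.00418 unfiltered and 0.00304 by DESeq2. With 1 library left out, the ranges were -0.055 to 0.0533 for SOX10, -0.572 to 0.128 for TAGLN, -0.129 to 0.0624 for PIR, -0.0903 to 0.171 for AXL, -0.156 to 0.432 for ANKRD1 and -0.0295 to 0.108 for SRF. With the block as well, the values of opposite sign were 0.0726 and 0.122 for SOX10, 0.016 and 0.0798 for PIR, -0.0796 and -0.034 for AXL, -0.531 and -0.202 for ANKRD1 and -0.00595 for SRF. The cause was not tested. Standard errors did not follow read number alone: they were 0.30 for ENTREP1, at 28 to 163 reads a library, 0.10 for MT2A and 0.51 for HMOX1.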

Other observations

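Further genes passed the test only with the replicate block and were picked here after their values were seen. NOTCH1, a receptor that controls cell fate, was at 119 and 87.6 CPM at 2 h, against 75.7 and 61.1 CPM at 0 h (log2 difference 0.60 ± 0.15). LAMB1, a laminin chain of basement membranes, was at 779 and 799 CPM at 2 h, against 638 and 628 CPM at 0 h (0.32 ± 0.09). PTGS2, the inducible cyclooxygenase, was at 103 and 93.2 CPM at 2 h, against 132 and 119 CPM at 0 h (-0.35 ± 0.11). MT1P3, a metallothionein pseudogene, was at 2.77 and 2.02 CPM at 2 h, against 0.791 and 0.563 CPM at 0 h (1.82 ± 0.36). Each lost the blocked call when at least 1 library was left out: MT1P3 without 0 h replicate 1 (edgeR adjusted p = 0.065), NOTCH1 without 0 h replicate 2 or 2 h replicate 1 (up to 0.255), LAMB1 without any except 2 h replicate 1 (up to 0.329), and PTGS2 without each of the 4 (up to 0.311).

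Large ratios were not always calls. MCF2 was at 117 and 6.73 CPM at 2 h and at 14.9 and 5.13 CPM at 0 h, with 1 treated library far above the other 3 (log2 difference 2.64 ± 1.03). ANXA2P2, a processed pseudogene, was at 10.9 and 10.2 CPM at 2 h and at 24.0 and 52.7 CPM at 0 h (-1.86 ± 0.56). HSPA1L, another gene of the HSP70 cluster, was at 8.11 and 10.8 CPM at 2 h and at 3.76 and 4.45 CPM at 0 h (1.20 ± 0.36). None of these 3 was called in 15 libraries with or without the block, but all were in the 8 UACC62R libraries with the block (edgeR adjusted p = 0.0301, 0.00527 and 0.00107).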
